A study of Homo sapiens with 12 samples.

Results

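TRMT112 is a small protein that binds and stabilizes several methyltransferases of rRNA, tRNA and translation factors. Among its partners, BUD23 and METTL5 modify the rRNA of the small subunit, TRMT11, THUMPD2, THUMPD3 and ALKBH8 act on tRNA or small nuclear RNA, and N6AMT1 (HEMK2) methylates the translation termination factor eRF1. Cells that run short of amino acids, or whose endoplasmic reticulum is under load, respond through the integrated stress response, in which the factors ATF4, CEBPG and DDIT3 (CHOP) induce genes for amino acid synthesis, amino acid import and tRNA charging.

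The KD effect that 2 triple-negative breast cancer (TNBC) cell lines had in common was measured in 8 of the 12 libraries of the series: 4 KD libraries were set against 4 EV libraries with the cell line as a block. Both lines, MDA-MB-231 and SUM159, are established cultures of human TNBC. Libraries labelled TRMT112 KD came from cells given a TRMT112 shRNA, and those labelled EV CTRL came from cells given, according to the methods, a non-silencing shRNA, with 2 libraries per group and line. The methods state selection with puromycin for the knockdown constructs, and the labels name no other treatment. The SUM159 medium held insulin and hydrocortisone and the MDA-MB-231 medium did not. Polysomes were separated on sucrose gradients after cycloheximide and the RNA bound to them was sequenced, so a count reflects the amount of an mRNA and its loading with ribosomes together, and, as in all bulk samples, fewer cells of a type and less RNA per cell cannot be told apart. The paper reports smaller polysome peaks after KD in both lines. Libraries were scaled to a common size, so higher and lower below are relative to the other mRNAs of a library. Absolute amounts on polysomes were not measured. The remaining 4 libraries came from BT549 cells with an empty vector or with TRMT112 overexpression (OE) and served only as a separate look at the genes found. The labels do not say that replicates came from separate cultures, so the p-values measure the spread between these libraries.

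Each library held between 22954226 and 27434677 expected counts, which are reads divided among the transcripts they fit. They were summed per gene symbol, and 15662 genes passed the filter on low counts. Values per library below are normalized counts, scaled to the mean library size of the 8 libraries. Effects are log2 fold changes of KD over EV, where 1 is a doubling. Replicates differed by a median of 0.0812 to 0.0964 (log2) per gene. Of the markers checked, ESR1 and PGR were at 0 in all 8 libraries, as were the leukocyte marker CD3E and the endothelial markers VWF and KDR. Other members of these lists were well counted. On the luminal list KRT8 had 4865 to 9609, KRT18 4617 to 10523 and ERBB2 1478 to 2999 counts, and on the leukocyte list CD68 had 559 to 4990. VIM, which encodes the mesenchymal filament vimentin, had 31322 to 46426 counts, while KRT5 on the same basal and mesenchymal list was at 0 in all 8 libraries. The summed endothelial list (5 markers, 2 of them tested and both called higher, PECAM1 and CDH5) went from between 1.10 and 1.58 to between 3.79 and 4.87 CPM (counts scaled by library size) from EV to KD. A different gene made up this rise in each line. CDH5 went from 18 and 16 to 105 and 81 counts in MDA-MB-231 and was at 0 in SUM159. PECAM1 went from 24 and 25 to 88 and 119 in SUM159, but from 12 and 12 to 13 and 16 in MDA-MB-231. The part of these markers in the results was not tested.

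TRMT112 itself (ENSG00000173113.7, GRCh38 chromosome 11, 64316460 to 64317559, minus strand) checked the labels. In MDA-MB-231 its normalized counts were 4411 and 4188 in EV against 1862 and 1775 in KD. In SUM159 they were 6452 and 6700 in EV against 4138 and 3916 in KD. EV and KD did not overlap in either line, and the residual level in SUM159 KD was close to the starting level of MDA-MB-231. The average effect was −0.97 (SE 0.11, adjusted p = 0.00321), made up of −1.24 for MDA-MB-231 and −0.71 for SUM159. The transcript ENST00000544844 held 95.3% of the counts of its tested transcripts and moved by −1.22 and −0.72.

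Among the 7 partners tested, TRMT11, a guanosine methyltransferase of tRNA, was the 1 called by the average effect, at −0.78 (SE 0.19, adjusted p = 0.0285). It fell by 0.32 in MDA-MB-231 and by 1.25 in SUM159. ALKBH8, a tRNA wobble uridine methyltransferase, went from 1831 and 1954 to 239 and 246 in SUM159 but from 641 and 616 to 553 and 546 in MDA-MB-231, and its average of −1.56 did not pass (adjusted p = 0.0845). BUD23 had 0.43 and −0.05, METTL5 −0.18 and 0.16, THUMPD3 0.16 and −0.47, THUMPD2 −0.18 and −0.76, and N6AMT1 0.07 and 0.31 in MDA-MB-231 and SUM159. THUMPD2 (adjusted p = 0.0604) and the other 4 of these were not called.

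The average KD effect was called for 1616 genes higher (10.3%) and 1363 genes lower (8.70%) of the 15662 tested (edgeR quasi-likelihood test, adjusted p under 0.05). Most were modest: the median size was 0.48, and 1852 of the 2979 called genes had an average effect under 1.5-fold. Because the line is only a block in this fit, disagreement between the lines enters the residual spread, and a gene abundant in 1 line is weighted towards that line: 137 called genes had opposite signs in the 2 lines. An example is THY1, a surface glycoprotein, with 643 and 711 against 7648 and 7377 in SUM159 and 2 counts or fewer in every MDA-MB-231 library. Scaling by library size alone called 1057 higher and 2203 lower, a share of 32.4% higher in place of 54.2%. Without any 1 of the 4 SUM159 libraries the calls dropped to between 618 and 724 higher and between 448 and 494 lower.

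Taken line by line, 21.5% of genes were called higher and 19.0% lower in MDA-MB-231, and 33.0% higher and 30.6% lower in SUM159. A total of 360 genes (2.30%) were at least 1.5-fold higher and 403 (2.57%) at least 1.5-fold lower in both lines. These 763 shared genes were set against 779 that moved at least 1.5-fold in opposite directions. Of the shared genes, 545 had a mean under 50 counts in at least 1 line, and 276 had 3 counts or fewer in every library of some group. Those 545 rest on few reads, so the description that follows turns on the 10991 well-counted genes, whose mean reached 50 counts in each line, a limit chosen after the data were seen. There, 100 genes (0.910%) were shared higher and 118 (1.07%) shared lower, against 155 with opposite directions.

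Among the 331 well-counted genes that were at least 1.5-fold higher in MDA-MB-231, 30.2% were also that much higher in SUM159 and 26.9% that much lower. Among the 417 that were lower, 28.3% were also lower in SUM159 and 15.8% higher. Changes of this size were more frequent in SUM159, with 1626 genes higher and 1827 lower. The change was larger in SUM159 for 71 of the 100 shared higher and 89 of the 118 shared lower genes, although TRMT112 itself fell less there. The size differed between the lines for 56 and 54 of them (test of the difference, adjusted p under 0.05), where 67.5% of all well-counted genes differed. By the average effect, which uses the same libraries, 93 and 112 were called. The most abundant transcript of the gene moved in the same direction in both lines for 96 of the 100 and 115 of the 118.

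**Figure D1:**
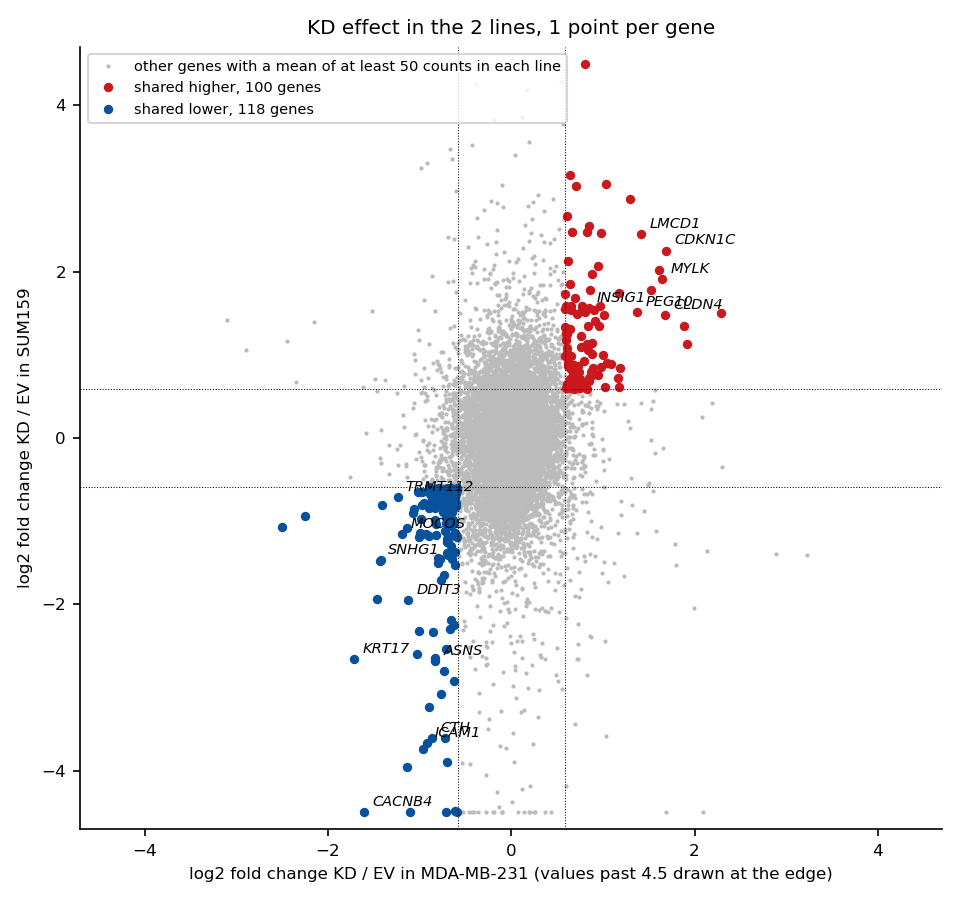
Log2 fold change of KD over EV in MDA-MB-231 (x axis) and SUM159 (y axis), 1 point per well-counted gene (mean of 50 counts or more in each line). Red points are the 100 shared higher and blue points the 118 shared lower genes, dotted lines mark 1.5-fold, and the cloud is taller than it is wide because changes of this size were more frequent in SUM159.

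MYLK, LMCD1, PEG10, CLDN4 and CDKN1C rose in both lines. MYLK (ENSG00000065534.20, chromosome 3, 123610049 to 123884332, minus strand) encodes myosin light chain kinase, which switches on actomyosin contraction. It had 1203 and 1185 counts in MDA-MB-231 EV and 3765 and 3727 in KD, and 894 and 890 against 3352 and 3334 in SUM159. KD lay above EV without overlap in each line, and the average was 1.78 (SE 0.07, adjusted p = 0.000131). Of all well-counted genes, 19.9% were higher without overlap in both lines and 18.6% lower. LMCD1 (chromosome 3, 8501807 to 8574668, plus strand), a LIM protein that binds GATA factors, had 238 and 238 against 631 and 645, then 221 and 255 against 1305 and 1309, an average of 1.94 (SE 0.21, adjusted p = 0.00278). The rise came to 1.42 in MDA-MB-231 against 2.46 in SUM159.

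PEG10 (chromosome 7, 94656325 to 94669695, plus strand), an imprinted gene derived from a retrotransposon, went from 364 and 415 to 1059 and 957 in MDA-MB-231. In SUM159 it went from 2329 and 2325 to 6414 and 6870. The EV levels of the lines were far apart and the rises, 1.37 and 1.51, were nearly equal (average 1.45, SE 0.07, adjusted p = 0.000238). CLDN4, a tight junction claudin (chromosome 7, 73799542 to 73832690, plus strand), went from 576 and 583 to 1863 and 1846 and from 65.8 and 48.2 to 144 and 172 (average 1.59, SE 0.11, adjusted p = 0.000718). CDKN1C, which encodes the CDK inhibitor p57 (chromosome 11, 2883213 to 2885775, minus strand), had 94.1 and 97.1 against 296 and 321 in MDA-MB-231. It had 35.0 and 22.6 against 128 and 147 in SUM159, so the groups were apart in both lines at low counts (average 1.94, SE 0.18, adjusted p = 0.00184).

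TFPI2, MOCOS and SNHG1 fell by nearly the same amount in both lines. TFPI2, a secreted protease inhibitor (chromosome 7, 93885396 to 93890753, minus strand), had 3028 and 3113 against 1107 and 1179 in MDA-MB-231 and 492 and 519 against 179 and 186 in SUM159. MOCOS, the molybdenum cofactor sulfurase (chromosome 18, 36187497 to 36272157, plus strand), had 818 and 829 against 357 and 364, and 1585 and 1561 against 709 and 704. SNHG1, a non-coding host gene of small nucleolar RNAs (chromosome 11, 62851978 to 62855953, minus strand), had 373 and 324 against 134 and 124, and 945 and 1056 against 384 and 339. EV and KD stood apart in both lines for all 3, as they did, in the lower direction, for 18.6% of well-counted genes. The 2 lines had −1.43 and −1.47 for TFPI2, −1.19 and −1.16 for MOCOS, and −1.43 and −1.47 for SNHG1. The average effects were −1.45 (SE 0.06, adjusted p = 0.000131), −1.17 (SE 0.06, adjusted p = 0.000238) and −1.45 (SE 0.09, adjusted p = 0.000526).

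**Figure D2:**
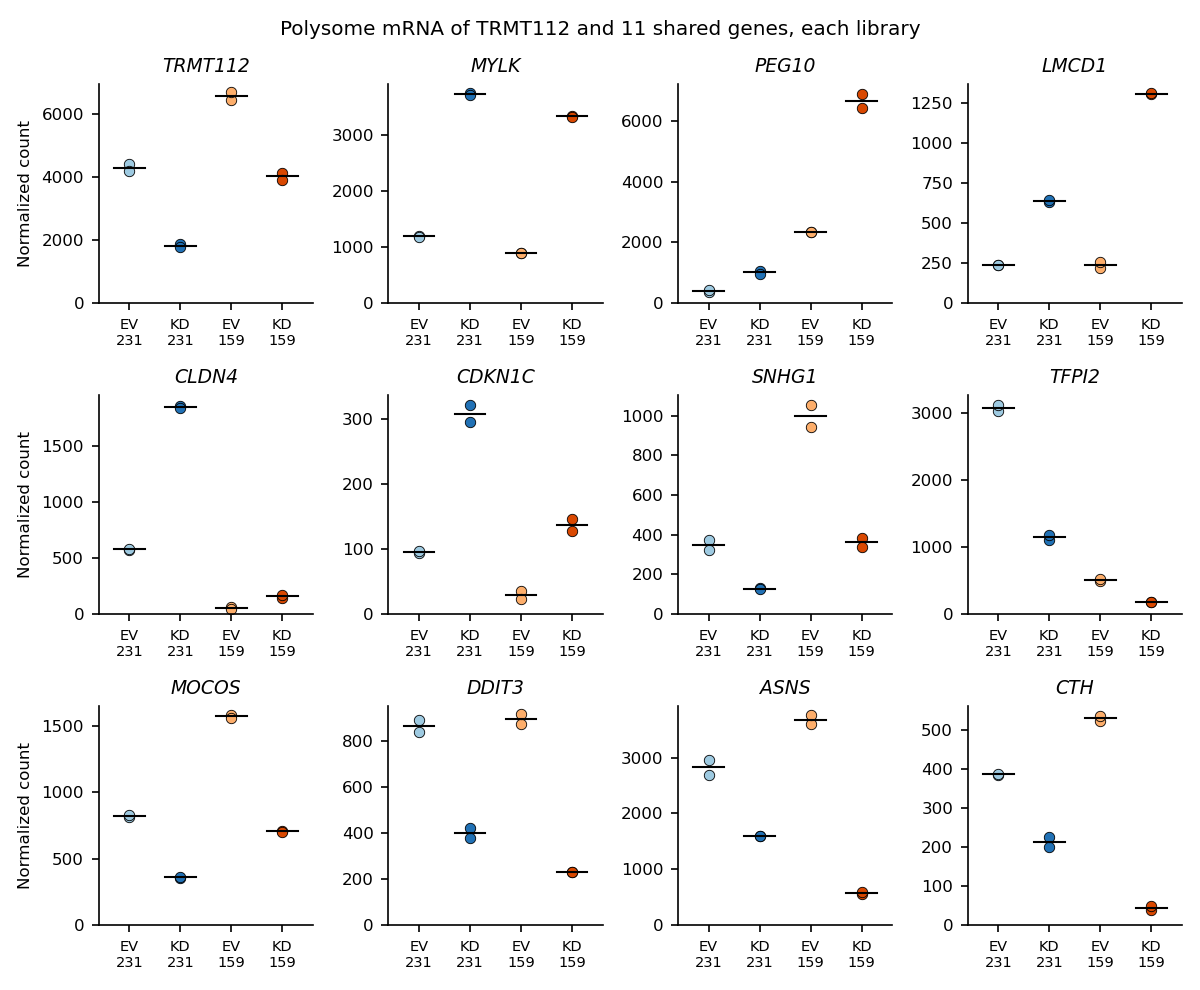
Normalized counts (y axes, each from 0) of TRMT112 and 11 shared genes in the 8 libraries, with 1 point per library and a bar at the mean of the 2 replicates. Columns are EV and KD of MDA-MB-231 (231, blue) and of SUM159 (159, orange); in every panel the KD points lie on the same side of the EV points in both lines.

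Ranked by the change in the line where a gene changed least, the 12 leading genes in each direction were mostly ones that 1 of the lines hardly expresses: 10 of 12 higher and 10 of 12 lower had a mean under 50 counts in a line. SSX1, a cancer-testis antigen, had 133 and 144 against 3258 and 3188 in SUM159, but 0 and 0 against 10.9 and 2.03 in MDA-MB-231. SCARF1, a scavenger receptor, had 541 and 625 against 4180 and 4054 in MDA-MB-231 and 0 and 0 against 3.20 and 0.916 in SUM159. C1QTNF1, a secreted C1q family protein, had 1673 and 1530 against 32.0 and 16.5 in SUM159 and at most 0.971 in each MDA-MB-231 library, and TNFAIP6, a hyaluronan-binding protein, had 119 and 113 against 2.13 and 2.75 with at most 1.00 in MDA-MB-231. For these 4 genes the direction of the second line rests on a handful of counts. APOBEC3G, a cytidine deaminase, was low but detected in both: 38.0 and 46.6 against 1.98 and 8.13, and 139 and 155 against 12.8 and 18.3. KRT17, a basal keratin, had 97.1 and 62.2 against 20.8 and 27.5, and 157 and 193 against 33.1 and 22.9 (average −2.20, SE 0.28, adjusted p = 0.00449). CACNB4, a calcium channel subunit, fell by 1.61 in MDA-MB-231 and by 6.17 in SUM159, where both KD libraries held 3 counts or fewer. At the limit itself, KLF13 (0.68 and 0.59) and ZNF235 (−0.59 and −0.81) were just inside, and HSDL1 (0.58 and 0.74) and the unnamed gene ENSG00000279689 (0.58 and 0.94) just outside.

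Calls by the average effect in this and every later list stand beside 8.70% lower and 10.3% higher over all genes. Calls within a line stand beside the shares given above for that line. Of 23 tested factors and targets of the integrated stress response, 12 were called lower and none higher by the average effect (8.70% and 10.3% over all genes), with a median of −0.58 against 0.00668 over all genes. In each line 19 of them were called lower, and 3 were called higher in MDA-MB-231 and 2 in SUM159. ATF4 itself, given here for its role and not by the naming rule, had 17530 and 17630 against 16750 and 16980 in MDA-MB-231 and 19160 and 20100 against 10100 and 10130 in SUM159. Its effects were −0.06 (adjusted p = 0.0947) and −0.96, and its average of −0.51 was not called (adjusted p = 0.0747). The 5 shared members were DDIT3, CEBPG, PPP1R15A, GDF15 and NUPR1. DDIT3, the stress factor CHOP (chromosome 12, 57516588 to 57521737, minus strand), had 894 and 839 against 377 and 420 in MDA-MB-231 and 876 and 916 against 233 and 232 in SUM159. The EV levels of the lines were alike, and KD lay below EV without overlap in each line (average −1.53, SE 0.17, adjusted p = 0.00297). In both lines 18.6% of well-counted genes did so.

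PPP1R15A (GADD34), which directs the phosphatase that reverses eIF2α phosphorylation, fell by 0.71 and 1.02 in MDA-MB-231 and SUM159 (adjusted p of the average 0.00144). CEBPG, the partner of ATF4 on its target sites, fell by 0.64 and 0.85 (adjusted p = 0.00144). GDF15, a secreted stress cytokine, had 1022 and 1112 against 648 and 550 in MDA-MB-231 and 732 and 716 against 116 and 115 in SUM159, so its fall of 0.83 there and 2.64 here differed between the lines. NUPR1, a small stress-induced chromatin protein, fell by 0.70 in SUM159, and in MDA-MB-231 it stood at 12 and 8.74 against 1.98 and 3.05 counts.

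Of 26 amino acid synthesis genes, 12 were called lower and 2 higher (median −0.52), and 4 were shared lower. ASNS, asparagine synthetase (ENSG00000070669.17, chromosome 7, 97851677 to 97872542, minus strand), had 2696 and 2966 against 1591 and 1600 in MDA-MB-231. In SUM159 it had 3597 and 3757 against 561 and 584. KD lay below EV without overlap in each line, as for 18.6% of well-counted genes. The fall was larger in SUM159 (−0.83 and −2.68, average −1.74, SE 0.36, adjusted p = 0.0185). CTH, which makes cysteine from cystathionine, went from 384 and 388 to 200 and 225 and from 523 and 535 to 37.4 and 48.5 (average −2.12, SE 0.54, adjusted p = 0.0341). MTHFD2L, a mitochondrial folate enzyme, fell evenly, by 1.13 and 1.08 (adjusted p = 0.00277), as did MTHFD1, its cytosolic relative, by 0.58 and 0.57 (adjusted p = 0.00293), just short of 1.5-fold. For MTHFD2L, 48.8% of the counts lay on a transcript with no defined coding sequence (−1.22 and −1.11). A coding transcript with 15.5%, at a mean of 14.9 counts, had −1.84 in MDA-MB-231 and −0.30 in SUM159. PHGDH, the first enzyme of serine synthesis, went from 5630 and 5376 to 1351 and 1167 in SUM159, and its 2.00 and 1.94 against 0 and 0 counts in MDA-MB-231 carry no information on a fall there.

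Among the 21 amino acid transporters, 3 were called lower and 1 higher (8.70% and 10.3% over all genes), with a median of −0.14. SLC7A2 and SLC7A1, carriers of cationic amino acids, fell by 0.67 and 2.30 and by 0.25 and 0.61 in MDA-MB-231 and SUM159. SLC3A2, the heavy chain that several transporters share, went from 4900 and 4954 to 3769 and 3716 and from 7878 and 8011 to 3031 and 3035 (average −0.89, SE 0.19, adjusted p = 0.0197).

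Of 23 cytosolic aminoacyl-tRNA synthetases and their scaffold proteins, 12 were called lower and none higher by the average effect (median −0.64), 16 were called lower in MDA-MB-231 and 22 in SUM159, and 0 reached 1.5-fold in both lines. The medians of the list were −0.19 and −1.01. VARS1 and AARS1, which charge the tRNAs of valine and alanine, and FARSB, a subunit of the phenylalanine enzyme, had the smallest p, at −0.59 (SE 0.11), −0.66 (SE 0.13) and −0.77 (SE 0.15), with adjusted p of 0.0144, 0.0157 and 0.0162. Of 17 mitochondrial synthetases 6 were called lower and none higher. Its methionine member MARS2 was shared, with 739 and 767 against 459 and 465, and 366 and 416 against 186 and 219 (average −0.82, SE 0.09, adjusted p = 0.00332).

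ATF4 and its partners bind a composite element, TGATGNAA. Its letters, on either strand, stood in 31.6% of 19 synthetase promoters, in 26.7% of 15 amino acid synthesis promoters and in 10.0% of 20 stress response promoters (RefSeq, GRCh38.p14, 250 bases before to 50 after the start of the gene). They stood in 1.56% of the promoters of all 8868 well-counted genes that have one in the table, and in 4 of 92 shared lower and 2 of 74 shared higher promoters. Of 32 genes of the 5 amino acid and stress lists that were called lower and have a promoter in the table, 9 held it. The list shares above count members whatever their KD effect, and no share is given for members not called lower. Whether the element goes with the fall was therefore not tested. Of the 9, the 5 that hold TGATGNAA before the start are shown because they carry the element of their list. They are ordered by the size of their fall. Each is given 5′ to 3′ over the 250 bases before the start, and capitals mark the 8-base match. A match is a description of letters, not of binding.
ASNS, chr7:97872409-97872658, minus strand: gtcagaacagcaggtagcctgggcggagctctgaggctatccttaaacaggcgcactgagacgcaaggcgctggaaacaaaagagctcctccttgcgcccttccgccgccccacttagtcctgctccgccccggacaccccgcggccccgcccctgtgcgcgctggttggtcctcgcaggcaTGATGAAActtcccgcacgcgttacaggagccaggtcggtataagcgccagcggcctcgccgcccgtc
IARS1, chr9:92293698-92293947, minus strand: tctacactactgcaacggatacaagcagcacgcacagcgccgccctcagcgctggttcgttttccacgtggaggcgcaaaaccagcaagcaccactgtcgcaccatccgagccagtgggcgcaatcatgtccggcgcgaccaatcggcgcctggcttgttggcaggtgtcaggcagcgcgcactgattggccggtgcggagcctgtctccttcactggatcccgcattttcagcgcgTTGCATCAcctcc
AARS1, chr16:70289507-70289756, minus strand: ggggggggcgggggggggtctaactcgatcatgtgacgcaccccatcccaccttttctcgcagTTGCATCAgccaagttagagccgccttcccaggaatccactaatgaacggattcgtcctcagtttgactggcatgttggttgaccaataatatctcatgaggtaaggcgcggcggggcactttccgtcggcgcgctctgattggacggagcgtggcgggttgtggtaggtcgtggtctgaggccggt
ATF3, chr1:212565157-212565406, plus strand: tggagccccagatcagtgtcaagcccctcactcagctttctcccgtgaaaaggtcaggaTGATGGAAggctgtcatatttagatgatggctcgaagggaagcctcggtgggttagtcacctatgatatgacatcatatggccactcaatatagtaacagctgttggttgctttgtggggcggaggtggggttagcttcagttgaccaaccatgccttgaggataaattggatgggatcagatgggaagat
YARS2, chr12:32755898-32756147, minus strand: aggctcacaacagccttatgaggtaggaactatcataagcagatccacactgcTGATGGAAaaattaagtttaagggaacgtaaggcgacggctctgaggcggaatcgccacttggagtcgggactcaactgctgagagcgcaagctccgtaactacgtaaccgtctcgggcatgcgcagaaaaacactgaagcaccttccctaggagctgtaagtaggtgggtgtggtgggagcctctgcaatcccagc

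Counted from the RefSeq start, the match in ASNS begins 68 bases before the gene, although the GENCODE span of ASNS given above begins further upstream and covers it, and that in IARS1, the isoleucine enzyme, 13 bases before it. IARS1 went from 8520 and 8267 to 6536 and 6516 in MDA-MB-231 and from 7099 and 6963 to 2269 and 2327 in SUM159 (average −0.99, SE 0.24, adjusted p = 0.0294). AARS1 had −0.33 and −0.98 in the 2 lines, ATF3, a stress transcription factor, −0.32 and −0.65, and YARS2, the mitochondrial tyrosine enzyme, −0.25 and −0.60. All 5 were picked from genes called lower, so their direction follows from that choice. Of the 5, ASNS was the 1 that fell by more than 1.5-fold in each line. In the other motif searches, the E box CACGTG stood in 10.5% of all these promoters, in 9.46% of the shared higher and 12% of the shared lower ones. The TEAD element GGAATG stood in 10.4%, 17.6% and 10.9%, CCACG (part of the ER stress element, and of some E boxes) in 51.3%, 44.6% and 48.9%, and the CArG box in 1.03%, 2.70% and 3.26%, all counted on both strands. TGATGNAA was not the only element frequent in the 3 lists. In synthetase, amino acid synthesis and stress response promoters the E box stood in 5.26%, 26.7% and 5.00%. CCACG stood in 47.4%, 66.7% and 70.0% of them.

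**Figure D3:**
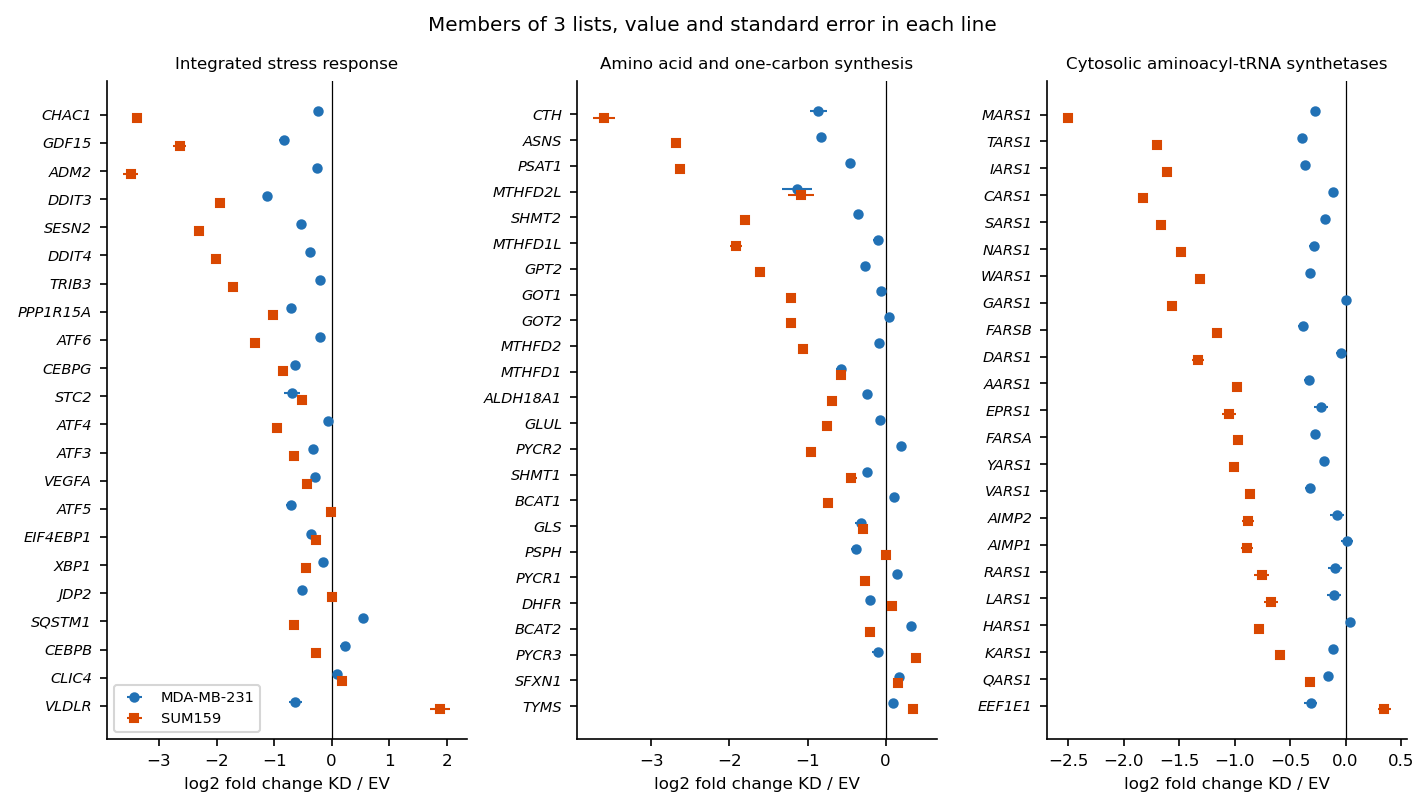
Log2 fold change of KD over EV (x axis) with its standard error for the members of 3 lists in MDA-MB-231 (blue circles) and SUM159 (orange squares), without genes at 3 counts or fewer in every library of a group. Most points lie left of 0 in both lines, and most SUM159 points lie further left, as the medians of −0.19 and −1.01 for the synthetases show.

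Of 59 genes of the small-subunit processome and RNA polymerase I, 24 were called lower and 1 higher (median −0.48; −0.10 in MDA-MB-231 and −0.74 in SUM159), and of 47 large-subunit assembly factors 12 lower and 1 higher (median −0.35; −0.0249 in MDA-MB-231 and −0.77 in SUM159). NOP56, a core protein of box C/D snoRNPs, had −0.44 and −0.70 in the 2 lines, and NOL6, a processome protein, −0.47 and −0.46 (adjusted p of the averages 0.00376 and 0.00449). POLR1E, a polymerase I subunit, had 1680 and 1663 against 1153 and 1116, and 1306 and 1311 against 993 and 1002. NOC3L, a large-subunit assembly factor, was the 1 shared gene of both lists, with −0.67 and −1.06 (adjusted p = 0.00385). Of the 79 cytosolic ribosomal protein genes, 27 were called higher and 0 lower by the average effect (median 0.19), 47 higher and 14 lower in MDA-MB-231, and 62 higher and 4 lower in SUM159, and 15 were called higher when scaled by library size alone. RPL13 had 19840 and 19980 against 29920 and 28560 in MDA-MB-231 and 25900 and 26290 against 42600 and 40120 in SUM159 (average 0.61, SE 0.05, adjusted p = 0.00129), and RPL17 had 0.31 and 0.51. These genes have many processed pseudogenes, so their counts may share reads with copies.

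Of 42 enzymes that modify tRNA or rRNA, 10 were called lower and 3 higher (median −0.31). DUS3L, a dihydrouridine synthase, was shared, with 1206 and 1203 against 793 and 705, and 3190 and 3063 against 1887 and 1645 (average −0.76, SE 0.07, adjusted p = 0.00219). TRMT1, a guanosine dimethyltransferase of tRNA, had −0.49 and −0.81, and QTRT1, which inserts queuine, −0.52 and −0.98 (adjusted p = 0.00508 and 0.00547). Of 48 translation initiation and elongation factors, 8 were called lower and 5 higher (median −0.16). Of 76 mitochondrial ribosomal protein genes, 8 were called higher and 3 lower. The higher calls of both lists were near the 10.3% over all genes, where 8.70% were called lower.

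Of 30 heat shock chaperones, 12 were called lower and 2 higher (median −0.46). HSPD1, the mitochondrial chaperonin HSP60 (chromosome 2, 197486584 to 197516737, minus strand), had 10120 and 10000 against 6215 and 6303, and 12990 and 13260 against 5708 and 5903. HSPA9 (mortalin) had −0.64 and −1.45, and HSPA8, the constitutive cytosolic HSC70, −0.28 and −0.50 (adjusted p of the averages 0.00281 for HSPD1, 0.00707 and 0.00691). Of 27 endoplasmic reticulum chaperones, 4 were called lower and 2 higher (8.70% and 10.3% over all genes), with a median of −0.05. Of the 13 mRNAs encoded by mitochondrial DNA, 7 were called lower and 0 higher, each by a small amount (median −0.21): MT-CO3 had −0.28 and −0.23 and MT-ND1 −0.34 and −0.20.

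Of 35 DNA replication genes, 15 were called lower and 0 higher by the average effect (median −0.18), 22 lower and 0 higher in MDA-MB-231, and 20 lower and 9 higher in SUM159. The 2 shared were RFC1, the large subunit of the clamp loader, and MCM6, a subunit of the replicative helicase. RFC1 had 1258 and 1271 against 702 and 714, and 2384 and 2405 against 1222 and 1202 (average −0.91, SE 0.06, adjusted p = 0.000526). MCM6 had −0.78 and −1.45 (adjusted p = 0.00442). Of 33 mitosis genes 8 were called lower and 1 higher (median −0.34), among them the shared VRK1, a chromatin kinase (−0.67 and −0.83), and NDC80, a kinetochore protein (−0.61 and −0.63). Of 25 G1 cyclins, kinases and inhibitors, 4 were called higher and 2 lower (10.3% and 8.70% over all genes), and CDKN1C, described above, was the 1 shared.

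Genes of the actin cytoskeleton rose more often than they fell: 20 of 60 were called higher and 7 lower (median 0.33; 0.0950 in MDA-MB-231 and 0.54 in SUM159). MYLK and LMCD1, described above, were the 2 shared. ARPC1B, a subunit of the Arp2/3 complex that branches actin, had 3577 and 3524 against 5313 and 5082, and 4755 and 4705 against 7075 and 6795, an equal rise of 0.55 in both lines (adjusted p of the average 0.00144). COTL1, an F-actin binding protein, had 0.48 and 0.74 (adjusted p = 0.00272). TPM1, a tropomyosin that the study names, had 7333 and 6936 against 9539 and 9336, and 6819 and 6965 against 15680 and 15560 (average 0.79, SE 0.15, adjusted p = 0.0143). The CArG box, the element of serum response factor, stood in 12% of 50 actin promoters, beside 1.03% of all. That share counts list members whatever their KD effect, so it says nothing about which of them moved.

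Of 27 YAP-TEAD targets, 6 were called higher and 2 lower (10.3% and 8.70% over all genes), with a median of 0.14. ANKRD1, a nuclear ankyrin protein, had 9401 and 9369 against 15870 and 15890 in MDA-MB-231 and 17.5 and 14.4 against 83.2 and 76.0 in SUM159, so it was higher in KD at very different levels. ARHGEF17, a guanine nucleotide exchange factor, had 0.59 and 0.99, and FOXF2, a mesenchymal forkhead factor, fell by 0.61 and 1.18. Of the 65 extracellular matrix genes, 13 were called higher and 6 lower (median 0.20), with 1 shared higher and 4 shared lower.

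Adhesion genes divided. Of 60, 14 were called higher and 4 lower (10.3% and 8.70% over all genes), with 3 shared higher (CLDN4, GPC1, ITGB5) and 4 shared lower (DSG2, ICAM1, CLDN1, DSP). GPC1, a heparan sulfate proteoglycan, had 465 and 504 against 956 and 1017, and 10580 and 10590 against 16620 and 15850 (average 0.81, SE 0.09, adjusted p = 0.00311). ITGB5, an integrin subunit, had 0.61 and 1.09 (adjusted p = 0.00371). DSG2 and DSP belong to desmosomes: DSG2 had 828 and 774 against 565 and 390, and 1186 and 982 against 604 and 678, while DSP had 325 and 283 against 215 and 181, and 231 and 171 against 13.9 and 4.58. The most abundant DSP transcript (55.5% of its counts) had 0.14 in MDA-MB-231 and −3.76 in SUM159, and the other −1.58 and −9.32. So the fall of DSP in MDA-MB-231 was not seen in its main transcript. The claudin CLDN1 had 200 and 207 against 135 and 115, and 790 and 749 against 51.2 and 52.2. EV and KD were apart in both lines for each (18.6% of well-counted genes were, in the lower direction), but the average passed for DSG2 (adjusted p = 0.00956) and CLDN1 (adjusted p = 0.0467) and not for DSP (adjusted p = 0.0844), which had −0.62 in MDA-MB-231 and −4.48 in SUM159. So 1 claudin rose and another fell in the same libraries.

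Of 26 NF-kB targets, 7 were called lower and 0 higher, with 10 lower and 4 higher in MDA-MB-231 and 22 lower and 0 higher in SUM159 (median −1.16; −0.07 in MDA-MB-231 and −2.93 in SUM159), and 7 were shared lower. CXCL3 and CXCL2, chemokines that attract neutrophils, went from 201 and 208 to 9.61 and 11 and from 304 and 328 to 8.54 and 15.6 in SUM159. In MDA-MB-231 both were scarce, at 29.0 and 22.3 against 7.91 and 12.2 for CXCL3 and 24.0 and 24.3 against 14.8 and 9.15 for CXCL2. CSF3, the cytokine G-CSF, was low in both lines, with 127 and 127 against 45.5 and 50.8, and 20.6 and 31.8 against 1.07 and 1.83. ICAM1, an adhesion receptor for leukocytes, was better counted: 690 and 600 against 331 and 350, and 1679 and 1673 against 149 and 116 (average −2.25, SE 0.55, adjusted p = 0.0304). NFKB1, which encodes an NF-kB subunit, had −0.45 and −1.88 (adjusted p = 0.0274).

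Of 26 sterol synthesis genes and SREBP2 targets, 8 were called higher and 0 lower by the average effect, with medians of 0.43 in MDA-MB-231 and −0.08 in SUM159. MVD, an enzyme of the mevalonate pathway, had 3688 and 3607 against 6717 and 6463, and 2791 and 2813 against 4722 and 4490 (average 0.79, SE 0.05, adjusted p = 0.000718). INSIG1, which retains the SREBP activator in the endoplasmic reticulum, had 5530 and 5473 against 9929 and 9836, and 7757 and 7967 against 22770 and 23510. EBP, a sterol isomerase, had 0.44 and 0.85. Outside that list, PCYT2, the rate-setting enzyme of phosphatidylethanolamine synthesis, was among the 5 genes of smallest p that rose, with 3342 and 3383 against 6271 and 6233, and 3664 and 3441 against 6455 and 6232 (average 0.87, SE 0.05, adjusted p = 0.000467). These 4 were higher in every KD library than in either EV library of the same line, as were 19.9% of well-counted genes in both lines.

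Of 24 NRF2 targets, 5 were called higher and 2 lower (10.3% and 8.70% over all genes), with 1 shared higher (HMOX1) and 2 shared lower. The medians were 0.20 in MDA-MB-231 and −0.34 in SUM159. In MDA-MB-231 13 were called higher and 4 lower, and in SUM159 8 higher and 15 lower. HMOX1, heme oxygenase 1, had 793 and 753 against 1414 and 1406, and 1357 and 1372 against 2379 and 2210 (average 0.81, SE 0.06, adjusted p = 0.000825). Of 48 interferon-stimulated genes, 2 were called higher and 4 lower, with medians of 0.14 in MDA-MB-231 and −0.77 in SUM159. In MDA-MB-231 17 were called higher and 8 lower, and in SUM159 5 higher and 31 lower. The list had 1 shared higher gene, BST2, and 2 shared lower ones. BST2 (tetherin) was the well-counted shared member, at 114 and 132 against 201 and 215, and 9532 and 9820 against 14930 and 14350. Of 23 genes of glycolysis and glucose transport, 5 were called higher and 6 lower, with 0.05 and −0.65 as the medians of the lines.

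**Figure D4:**
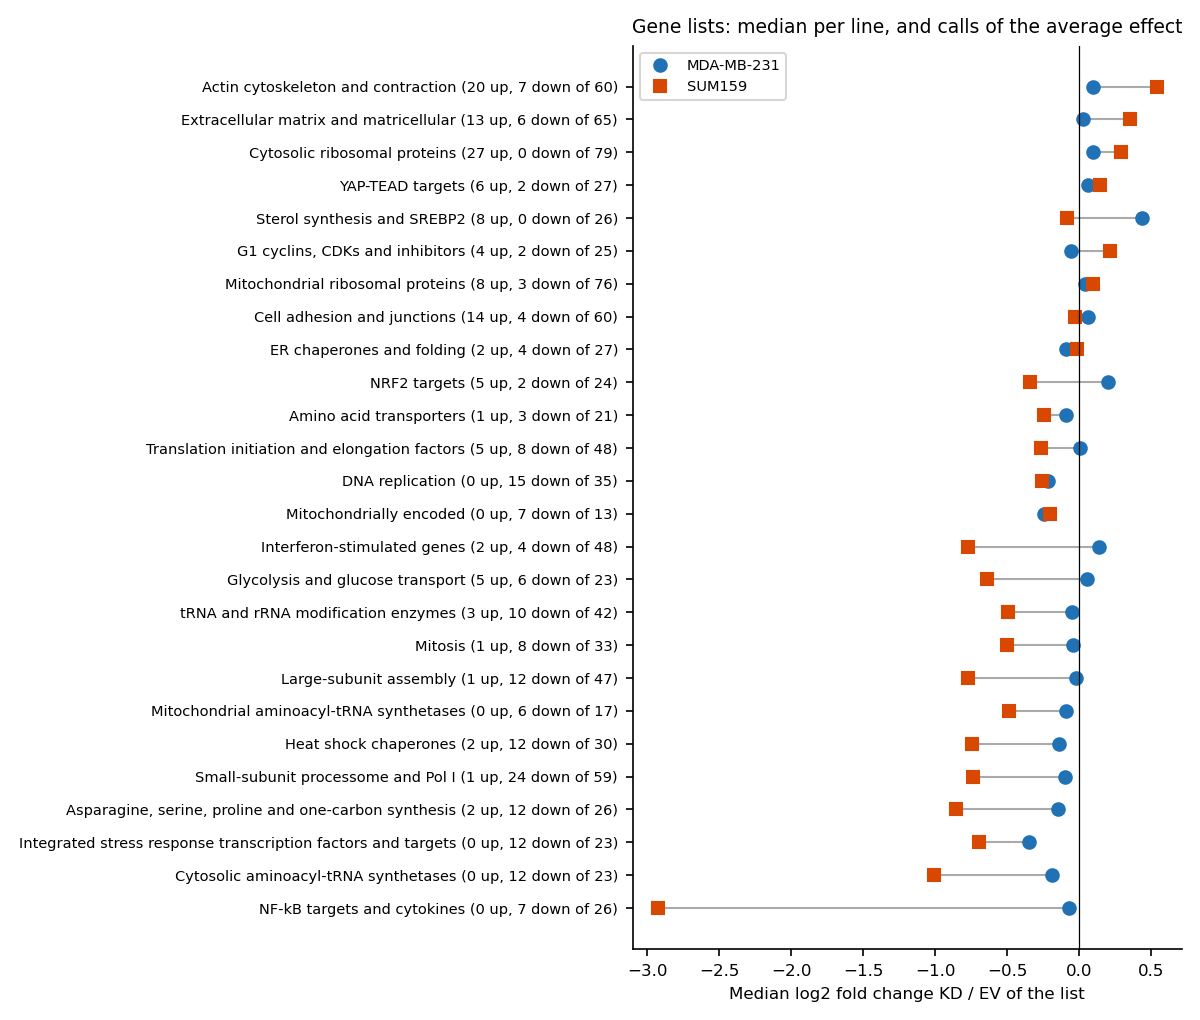
Median log2 fold change of KD over EV (x axis) of 26 gene lists in MDA-MB-231 (blue circles) and SUM159 (orange squares), ordered by the median of the average effect, with the genes called higher (up) and lower (down) by the average effect beside each name. Actin genes and ribosomal proteins lie right of 0 in both lines, and the stress response, tRNA synthetases and ribosome assembly lie left of it in both.

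The study names 6 genes as targets of the KD, chosen from polysome sequencing of these cells, so that they are no independent evidence. ASNS, VRK1, LMCD1 and TPM1 are given above. MDK, the growth factor midkine, had 627 and 602 against 1223 and 1210, and 54.5 and 53.4 against 287 and 308 (average 1.62, SE 0.28, adjusted p = 0.0102). ATP1B1 encodes a beta chain that the sodium pump needs to leave the endoplasmic reticulum. It went from 1930 and 2097 to 1686 and 1708 in MDA-MB-231 and from 533 and 455 to 1207 and 1171 in SUM159. Its effects of −0.25 and 1.27 were of opposite sign, and its average of 0.50 was not called (adjusted p = 0.259).

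The shared genes differed in base composition. The median GC content of the main transcript was 56.8% (quartiles 48.1 and 60.8) for the 100 shared higher genes, 44.4% (40 and 52.2) for the 118 shared lower and 48.4% (42.1 and 56.8) for all well-counted genes. Over all 10991 genes the median effect rose with GC content in both lines, from −0.07 to 0.05 in MDA-MB-231 and from −0.09 to 0.20 in SUM159 between transcripts of at most 40% and of over 60% GC. Of genes in the lowest class 3 were shared higher and 30 lower, and in the highest class 29 higher and 8 lower. The part of base composition in the results was not tested. Median transcript lengths were 3668 and 3214 bases, against 3024 for all. Long non-coding RNAs made up 5.00% of the shared higher, 14.4% of the shared lower (17 genes) and 3.74% of all.

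**Figure D5:**
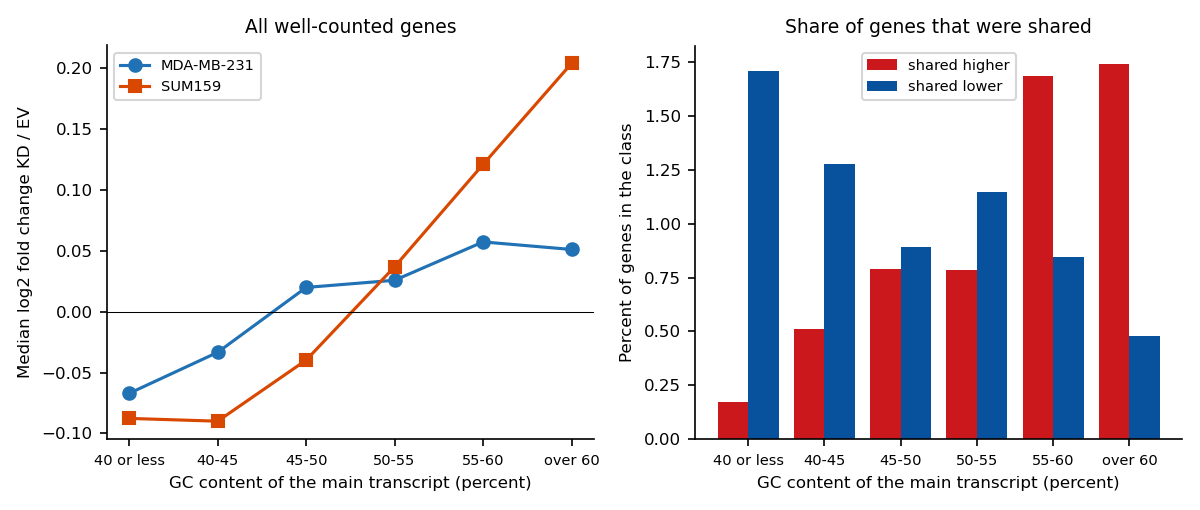
Left, median log2 fold change of KD over EV (y axis) of all well-counted genes (mean of 50 counts or more in each line), by GC content of the main transcript (x axis, percent), in MDA-MB-231 (blue) and SUM159 (orange). Right, percent of the genes in each class that were shared higher (red bars) or shared lower (blue bars); shared higher genes go from 0.171% to 1.74% and shared lower genes from 1.71% to 0.480% across the classes.

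In BT549, where TRMT112 was raised instead (0.47, adjusted p = 2.5e-08, edgeR), the shared genes did not stand apart. Of the 94 shared higher genes tested there, 40 were called higher and 38 lower with OE, or 42.6% and 40.4%, and of 105 shared lower genes 39 were higher and 42 lower, or 37.1% and 40%. Over all well-counted genes tested in BT549, 38.5% were called higher and 42.1% lower, so these shares are near the background. Among genes given above, PCYT2 (−1.53), HMOX1 (−0.55) and MCM6 (0.56) moved with OE against their direction in KD, while LMCD1 (3.01), PEG10 (1.16), TFPI2 (−1.20), MOCOS (−2.31) and DDIT3 (−0.86) moved with it. MYLK, at −0.22, did not pass in BT549 (adjusted p = 0.0946).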

How the data were processed

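Polysome-bound RNA was sequenced in 12 libraries of 3 cell lines, of which the 8 of MDA-MB-231 and SUM159 were fitted here. Per the methods and the submitters' processing notes, the authors used Trimmomatic for trimming, HISAT2 for alignment to GRCh38, SAMtools for removing duplicates, and Partek. How transcripts were counted, with which annotation and whether by strand, is not given in the sources used here, and the labels and the methods name different library kits (poly(A) enrichment and rRNA depletion). The authors deposited expected counts, not normalized, for Ensembl transcripts, and in the 8 columns used here 10254 rows (5.08%) hold a missing mark, which was taken as 0. Each listed transcript has a count in at least 1 of the 4 BT549 libraries, and mRNAs absent there could not be tested.

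Transcripts were matched to GENCODE 44 (79.6% of rows, over 99.2% of counts), summed per gene symbol and rounded. Genes were kept by filterByExpr, given TMM factors and fitted by the quasi-likelihood method of edgeR 4.0.16 (R 4.3.3), with line and KD as additive terms (5 residual degrees of freedom, common dispersion 0.0308). Values of each line and their difference came from 4 group means (4 residual degrees of freedom, common dispersion 0.000823), and the 4 BT549 libraries were fitted alone. A call is an adjusted p-value (Benjamini-Hochberg over all genes) under 0.05. Standard errors are the log2 fold change over the square root of F. Shared genes have the same sign and at least 1.5-fold change in both lines. Standard errors hold the spread between replicates and, in the additive fit, the disagreement between the lines. The floor of 3 counts covers counting error only. On simulated counts of 15662 genes the average effect recovered 67.0% of genes changed 1.5-fold and 91.0% of those changed 2-fold in both lines, called 5.00% of genes changed in opposite directions, and 1.75% of its calls were unchanged genes. The simulated dispersion lay below the 0.0308 of the additive fit, and all other genes had no KD effect in either line. In the data the effect differed between the lines for 67.5% of well-counted genes, so these rates do not carry over to them.

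The shared rule and the 28 gene lists with 4 marker lists were chosen with earlier results of these data known. Genes were named by a rule: TRMT112 and its partners, the 12 shared genes per direction (mean of at least 50 counts) with the largest change in the line where they changed least, the 5 per direction with the smallest p, the 3 of smallest p and the shared ones in each list, 4 of the 6 the study names as targets and those nearest the limit. Of these 143 genes some are not reported. IARS1, ATF3 and YARS2 were named for their promoters. Alternatives were RLE factors, library size only, DESeq2 1.42.0, other filters, other designs, the replicate block, transcripts, other limits and leaving out each library. Leaving out the marked transcripts and a mean of at least 50 counts in each line were added after the data were seen.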

Additional observations from a re-analysis of the deposited data

Results flagged for a closer look

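For 65 of the 101 genes named in the text and tested, the KD effect differed between the lines by the test of the difference itself (edgeR quasi-likelihood, adjusted p under 0.05), and for 56 of the 65 the change was larger in SUM159. Such differences were common, at 67.5% of well-counted genes. Values are the log2 effect in MDA-MB-231 minus that in SUM159, so a positive value marks a larger fall, or a smaller rise, in SUM159.

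Among genes of the stress response and of amino acid supply that were lower in both lines, the difference was 0.83 for DDIT3, 0.21 for CEBPG, 0.31 for PPP1R15A, 1.81 for GDF15, 0.90 for ATF4 (not called in MDA-MB-231) and 0.32 for ATF3. It was 1.85 for ASNS, 2.74 for CTH, 1.63 for SLC7A2, 0.36 for SLC7A1 and 0.99 for SLC3A2. The synthetases had 0.55 for VARS1, 0.65 for AARS1, 0.78 for FARSB, 1.25 for IARS1 and 0.35 for YARS2. In ribosome assembly, RNA modification, replication and folding it was 0.26 for NOP56, 0.39 for NOC3L, 0.32 for TRMT1, 0.45 for QTRT1, 0.67 for MCM6, 0.49 for HSPD1, 0.81 for HSPA9 and 0.22 for HSPA8.

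Among inflammatory and growth factor genes that were lower in both lines, the difference was 3.67 for CXCL2, 2.94 for CXCL3, 2.64 for CSF3, 1.43 for NFKB1, 2.75 for ICAM1, 4.20 for TGFA, 4.45 for AREG, 0.66 for EGFR, 0.94 for KLF4 and 0.51 for KLF10. In junctions and elsewhere it was 3.19 for CLDN1, 3.87 for DSP, 4.56 for CACNB4 and 0.57 for FOXF2. Genes that fell further in MDA-MB-231 were TRMT112 at -0.53, EGR1 at -1.43 and MT-ND1 at -0.14.

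Genes that were higher in both lines and more so in SUM159 had -0.26 for MYLK, -1.03 for LMCD1, -0.78 for TPM1, -0.27 for COTL1, -1.55 for ANKRD1, -0.40 for ARHGEF17, -0.47 for ITGB5 and -0.71 for INSIG1. The others were EBP at -0.41, RPL13 at -0.11, RPL17 at -0.20, MDK at -1.48 and APLN at -0.41. GPC1 at 0.41, MVD at 0.14 and ROR1 at 0.53 were raised more in MDA-MB-231. Of the partners of TRMT112, TRMT11 had 0.94, THUMPD2 0.57 and ALKBH8 2.77. BUD23 at 0.48, METTL5 at -0.34, THUMPD3 at 0.62, ATP1B1 at -1.51 and THY1 at -7.15 had opposite signs in the lines, and THY1 rests on 2 counts or fewer in each MDA-MB-231 library.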

How the results depend on the processing

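The direction of TRMT112 held under every alternative run. Scaling by library size alone called 1057 genes higher and 2203 lower, and the transcripts as listed gave 386 and 198. The average of group means, which leaves the disagreement of the lines out of the residual spread, called 4483 and 4315, and the same contrast over all 12 libraries 4171 and 4524. DESeq2 called 2494 higher and 2003 lower. The numbers of the replicates did not pair the libraries (correlation of deviations 0.00626 in MDA-MB-231 and -0.0289 in SUM159), and a replicate block called 12 and 9 genes and left TRMT112 at -0.97 with an adjusted p of 0.0711 (edgeR). Leaving out 1 library at a time gave between 618 and 1252 genes higher and between 448 and 1025 lower. Without SUM159 EV replicate 1 it was 633 and 482, without EV replicate 2 618 and 448, and without KD replicate 1 or 2 724 higher with 494 or 490 lower. The cause was not tested. Shared genes numbered between 396 and 521 higher and between 452 and 526 lower when 1 library was left out, and TRMT112 lay between -1.04 and -0.90.

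With no filter 920 shared genes were higher and 914 lower, with an average of 50 counts or more per library 168 and 166, and fitted on well-counted genes alone 94 and 117. At 2-fold in both lines 129 and 137 were left, and 154 and 162 were also called in each line. THY1 turned from 3.38 to -0.10 with the average of group means and to -0.0910 over all 12 libraries, by construction of those contrasts. Of 142 named genes besides TRMT112, 138 stayed on the same side of the threshold with library size only, 136 with DESeq2 and 127 with the average of group means, but 30 with the replicate block and between 116 and 120 without 1 SUM159 library. Leaving out the marked transcripts changed no call. For a gene at few counts in 1 line, a shared change rests on a handful of reads.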

Other observations

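The groups below were chosen after their values were seen and have no test of their own. Of 28 host genes of small nucleolar RNAs, 7 were called lower and 1 higher by the average KD effect (edgeR), and 4 were shared lower: SNHG1, SNHG8, SNHG15 and GAS5. GAS5 had normalized counts of 1544 and 1506 against 1069 and 922 in MDA-MB-231 and 1094 and 1213 against 716 and 733 in SUM159. SNHG15 had -0.75 and -0.82 and SNHG8 -0.67 and -0.62 in the lines, and 15 of the 28 were lower in both. The medians of the group were -0.56 in MDA-MB-231 and -0.03 in SUM159.

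Among 6 ligands of the EGF family, TGFA and AREG were the well-counted shared genes. TGFA had 521 and 592 against 263 and 255 in MDA-MB-231 and 223 and 252 against 8.54 and 3.66 in SUM159. AREG (amphiregulin) had 117 and 148 against 81.1 and 80.3, and 650 and 661 against 9.61 and 25.6, and its average did not pass (adjusted p = 0.0727). EGFR, their receptor, had 3566 and 3385 against 2320 and 2367, and 2695 and 2860 against 1168 and 1196 (average -0.90, SE 0.13, adjusted p = 0.00649). Of 17 immediate early transcription factors, 7 were called lower and 0 higher, with EGR1, KLF4 and KLF10 shared. EGR1 had 1200 and 1161 against 195 and 222, and 447 and 482 against 241 and 203. KLF4 had -0.76 and -1.70, and KLF10 -0.70 and -1.21.

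APLN, which encodes the peptide apelin, had 60 and 75.8 against 206 and 212, and 413 and 415 against 1693 and 1678 (average 1.85, SE 0.11, adjusted p = 0.000526). ROR1, a receptor of WNT5A, had 42.0 and 47.6 against 151 and 180, and 224 and 229 against 538 and 614 (average 1.58, SE 0.14, adjusted p = 0.00165). Of well-counted genes, 0.910% were shared higher and 1.07% shared lower, and by chromosome the shares of shared lower genes were greatest on chromosome 18 (5 of 158, 3.16%) and chromosome 2 (21 of 721, 2.91%). Shares of shared higher genes were greatest on chromosomes 22 (6 of 271, 2.21%), 15 (7 of 360, 1.94%) and 16 (10 of 525, 1.90%).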
